A study of Sus scrofa with 92 samples.

Results

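MSS51 (gene ID ENSSSCG00000010300) is 1 of 25322 genes in the deposited expression tables, and it was chosen by its measured level, for the large difference between psoas major and longissimus dorsi, 2 skeletal muscles of the pig. Its level was followed in all 92 libraries, of which 83 came from 9 tissues and 9 from mixtures of tissues. All pigs were 60 days old, no treatment is named, and each breed gave 1 library per tissue, so the breeds served as replicates. The breeds were Berkshire, Hampshire, Landrace, Large White and Piétrain, which originate in Europe or North America and are called Western below, and 5 that originate in China, namely Tibetan wild boar, Rongchang, Meishan, Jinhua and Bamei. That division comes from general knowledge of the breeds and not from the labels.

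Psoas major, the inner loin muscle, longissimus dorsi, the long back muscle, and spleen had libraries from 10 breeds. Heart, liver, kidney, subcutaneous adipose, ovary and mixture had libraries from 9 breeds and lung from 8. Tibetan wild boar gave only spleen and the 2 muscles, and Rongchang gave no lung. The labels do not say whether the tissues of a breed came from the same animal or whether animals were pooled, so each p measures the spread between these libraries. The composition of the mixtures is not given.

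MSS51, also called ZMYND17, is a mitochondrial protein with a MYND zinc finger that is found mainly in skeletal muscle, and more in fast glycolytic than in slow oxidative muscle. Its yeast namesake is needed to translate the mRNA of COX1, the catalytic subunit of cytochrome c oxidase (complex IV of the respiratory chain). In mammalian muscle cells, MSS51 lies downstream of myostatin and TGF-beta signalling, and its loss raises oxidative metabolism.

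The values are FPKM, fragments per gene, divided by gene length and by the total of mapped fragments. Total FPKM per library ran from 519075 to 2196138 and genes at 1 FPKM or more from 10175 to 14561, and no pair of libraries was identical. Read depth and counts were not analysed here, so the error of a single value is unknown. ACTA1, skeletal actin, was listed at 0 in 6 psoas major and 9 longissimus dorsi libraries, which goes against its known abundance in muscle. COX1 was listed at 0 in 4 psoas major libraries, and COX3 in 5 psoas major libraries and 1 of longissimus dorsi. These 3 genes are left out of the counts, sums and medians of gene lists below. In the muscle libraries the 10 remaining skeletal muscle markers summed to at least 23910 FPKM, scaled between libraries, against at most 41.7 in heart and 3852 in any other tissue. MSS51 was above 0 in each of the 92 libraries.

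MSS51 was most abundant in longissimus dorsi. The deposited level there ran from 6.37 FPKM to 58.6 FPKM with a median of 44.9 FPKM. In psoas major it ran from 2.14 to 17.6 FPKM with a median of 4.93 FPKM, and in ovary from 8.04 to 16.2 FPKM with a median of 11.6 FPKM. Deposited values thus placed ovary between the 2 muscles.

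The remaining tissues held little MSS51. Spleen ran from 2.12 to 4.89 FPKM (median 2.92), lung from 1.93 to 2.82 FPKM (median 2.30), and kidney from 1.61 to 2.81 FPKM (median 2.06). Adipose ran from 1.33 to 2.88 FPKM (median 1.99), heart from 0.557 to 1.63 FPKM (median 1.21), and liver from 0.316 to 1.12 FPKM (median 0.545). The ranges of spleen, lung, kidney and adipose overlapped, and liver was lowest by its median. Heart, the other striated muscle, was at the low end with liver.

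**Figure D1:**
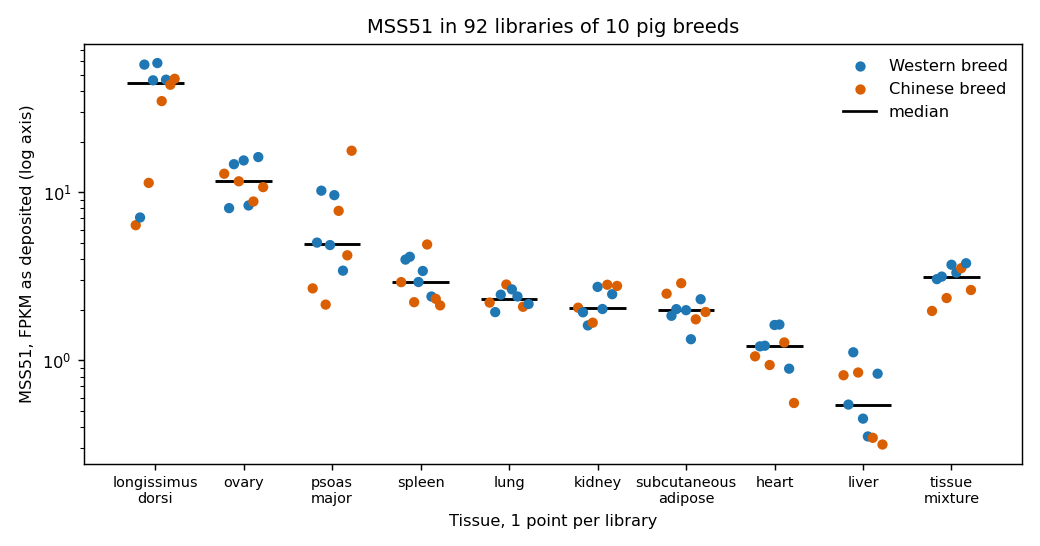
Deposited FPKM of MSS51 (log axis) in each library, by tissue and for the mixtures; points are libraries coloured by the origin of the breed, and bars are group medians. Longissimus dorsi has the highest median at 44.9 FPKM, with 3 libraries well below it, and liver has the lowest median at 0.545 FPKM.

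The place of MSS51 among the genes of each library does not depend on how libraries are scaled. In longissimus dorsi its percentile ran from 77.3 to 96.6 with a median of 95.9. Psoas major had a median percentile of 77.2 (65.4 to 92.2) and ovary of 74.0 (67.5 to 80.4). Medians were 58.4 in spleen, 57.6 in adipose, 55.3 in heart, 54.3 in kidney, 52.6 in liver and 52.3 in lung. By rank, psoas major and ovary were therefore close together and the other tissues lay below both.

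Scaling the libraries to a common median brought psoas major and ovary together. Median scaled FPKM was 70.0 in longissimus dorsi, 7.68 in ovary and 7.29 in psoas major, and then 2.16 in spleen, 1.88 in adipose, 1.74 in kidney, 1.65 in lung, 1.39 in heart and 0.806 in liver. Comparisons of the tissues in the fit of 83 libraries use this scale. Other fits, such as those of the muscles alone or with the mixtures, were scaled anew within their own libraries. All used log2 of scaled FPKM plus 1, a form that understates differences of low values. The fold values below come from these log2 differences, so they are ratios of scaled FPKM plus 1 and not of the level itself.

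Skeletal muscle, taken as the mean of both muscles, was higher in MSS51 than each of the other 7 tissues. Selection of the gene used the difference between the muscles. Longissimus dorsi, the higher of them, is part of this mean, so these tests are not independent of the selection. The limma fit shares a single residual spread over all 83 libraries, so its SE and p do not measure the spread of each comparison. For heart minus liver the SE was 0.267 in this fit and 0.12 when the muscles were left out. The exact permutations further below use only the differences within breeds. Against heart the log2 difference was 3.04 ± 0.23 (SE), or 8.22-fold, with a limma adjusted p of 3.07e-19. MSS51 was higher in muscle in 9 of 9 breeds. Across all genes tested, 23.3% were called higher in muscle than in heart. Against liver the difference was 3.39 ± 0.23, or 10.5-fold (adjusted p = 3.55e-22, limma), in 9 of 9 breeds, with 36.0% of genes called higher.

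The 4 tissues with intermediate levels gave differences of similar size. Against spleen MSS51 was 2.58 ± 0.22 higher on the log2 scale, in 10 of 10 breeds (limma adjusted p = 1.42e-17, 32.3% of genes called higher). Against lung it was 2.81 ± 0.24 higher, in 8 of 8 breeds (limma adjusted p = 2.31e-17, 27.3% of genes). Against kidney it was 2.73 ± 0.23 higher, in 9 of 9 breeds (limma adjusted p = 1.16e-17, 29.0% of genes).

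Against adipose it was 2.69 ± 0.23 higher, in 9 of 9 breeds (limma adjusted p = 3.15e-17, 26.3% of genes). Each of these differences was smaller with psoas major alone, at 1.96 for heart, 2.31 for liver, 1.5 for spleen, 1.73 for lung, 1.65 for kidney and 1.61 for adipose, and the largest of the limma adjusted p was 2.3e-07. With longissimus dorsi alone they were 4.12, 4.47, 3.67, 3.89, 3.81 and 3.77. Exact two-sided sign-flip permutation over breeds, for the mean of both muscles, gave p = 0.00391 for heart, liver, kidney and adipose, 0.00195 for spleen and 0.00781 for lung. These are the smallest p that the numbers of breeds allow. Within the adipose libraries the summed skeletal muscle markers ran from 48.9 to 3852 scaled FPKM and were highest in Meishan, where MSS51 was 1.75 FPKM, below the adipose median.

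Ovary stood closest to muscle. The log2 difference was 1.13 ± 0.23 (SE), 2.19-fold higher in muscle, in 7 of 9 breeds (limma adjusted p = 8.8e-06, exact sign-flip permutation p = 0.0195), where 28.4% of all genes were called higher. Longissimus dorsi exceeded ovary in 8 of 9 breeds and psoas major in 4 of 9. With psoas major alone the difference was 0.05 (limma adjusted p = 0.871). On deposited FPKM the difference of the mean of both muscles was 0.09 (limma adjusted p = 0.687), and the median over all genes was then -1.03, against -0.26 after scaling. Markers of the ovary summed to 385 to 1720 scaled FPKM in ovary, and the 10 skeletal muscle markers there summed to 8.39 to 15.1.

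The other tissues were also compared among themselves, in 21 pairs. MSS51 differed in 9 pairs in the fit of all 83 tissue libraries, where over all pairs 70.3% of the tests of genes passed. Ovary was higher than each of the other 6 tissues, by 1.45 (spleen) to 2.25 (liver) on the log2 scale. In these pairs 76.9% (heart), 81.0% (liver), 78.4% (spleen), 75.7% (lung), 75.1% (kidney) and 75.0% (adipose) of all genes differed. Liver was lower than spleen, kidney and adipose, by 0.80, 0.66 and 0.70 (limma adjusted p = 0.00494, 0.0259 and 0.0174), in pairs where 72.4%, 67.1% and 68.1% of all genes differed. A share of this size is the background, so passing in a pair of tissues is not particular to MSS51. Heart, spleen, lung, kidney and adipose did not differ beyond the spread in any pair of that fit, nor did liver from heart or lung. When the 7 tissues were fitted without the muscles, 16 pairs passed (71.6% of the tests over all genes), and the 5 that did not were heart with lung, spleen with adipose, and the 3 pairs among lung, kidney and adipose.

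The 9 mixtures held 1.97 to 3.78 FPKM of MSS51 (median 3.15). In the 8 breeds with all tissues, the scaled level in the mixture was 3.05 ± 0.65 (SD, n = 8), against 8.74 ± 4.44 for the mean of the 9 tissues of the same breed. The log2 difference was -1.13 ± 0.18 (SE), or 2.18-fold lower in the mixture, in 8 of 8 breeds (limma adjusted p = 0.000476, exact sign-flip permutation p = 0.00781, the smallest possible). Of all genes, 39.0% were called lower in the mixture. Skeletal muscle markers in the mixtures summed to 834 to 10350 deposited FPKM. Ovary markers there summed to 0.447 to 4.04 deposited FPKM, against 385 to 1720 scaled FPKM in ovary. Nerve and Schwann cell markers had a median sum of 285 deposited FPKM in the mixtures. The highest median of a tissue was 74.3 scaled FPKM, in longissimus dorsi. The mean of the 9 tissues is thus no matched reference for the mixtures, and the part of composition in the lower level was not tested.

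The difference between the muscles, for which MSS51 was chosen, is described here breed by breed with no test. In Piétrain MSS51 was 3.41 FPKM in psoas major and 46.7 FPKM in longissimus dorsi, a ratio of 13.7. Rongchang had 4.21 and 43.6 FPKM (ratio 10.3), and Landrace 4.85 and 46.3 FPKM (ratio 9.55). These 3 breeds had the largest ratios.

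Large White had 9.61 FPKM in psoas major and 58.6 FPKM in longissimus dorsi (ratio 6.11), and Hampshire 10.21 and 57.4 FPKM (ratio 5.63). Jinhua had 2.14 and 11.4 FPKM (ratio 5.3), and Meishan 7.75 and 34.8 FPKM (ratio 4.5). The ratio of Jinhua was thus close to that of Hampshire although both of its muscles were far lower.

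Tibetan wild boar had 17.6 and 47.3 FPKM (ratio 2.68), with the highest psoas major value of any breed. Bamei had 2.68 and 6.37 FPKM (ratio 2.38), and Berkshire 5.01 and 7.07 FPKM (ratio 1.41), with the 2 lowest longissimus dorsi values. Longissimus dorsi was the higher muscle in 10 of 10 breeds, but the ranges overlapped, since psoas major of Tibetan wild boar exceeded longissimus dorsi of Berkshire, Bamei and Jinhua. Between 11.4 and 34.8 FPKM no longissimus dorsi library had a value.

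**Figure D2:**
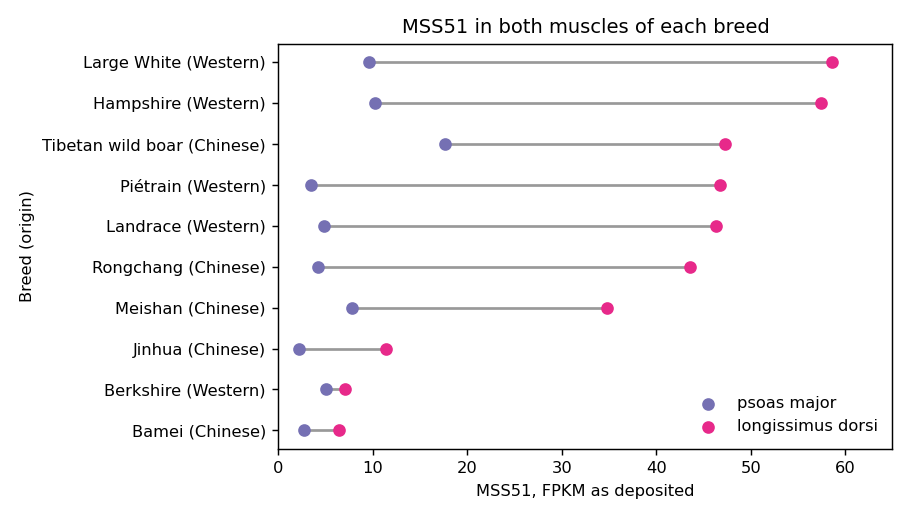
MSS51 in deposited FPKM (horizontal, linear axis) in psoas major and longissimus dorsi of each of 10 breeds, with a line joining the 2 muscles of a breed and breeds ordered by longissimus dorsi. Longissimus dorsi is to the right in all 10 breeds, with the shortest line in Berkshire (5.01 to 7.07 FPKM).

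After scaling within the 20 muscle libraries, the mean was 7.06 ± 5.43 FPKM in psoas major and 36.9 ± 21.5 FPKM in longissimus dorsi (SD, n = 10). The mean log2 difference was -2.09 ± 0.30 (SE), or 4.27-fold lower in psoas major, and the SD of the 10 differences was 1.04. Ordered by this difference, MSS51 ranked 17 from the most negative among 12112 genes. Near it in that order stood APOC3 at rank 14 (-2.48), a lipoprotein component made by liver, HOXC6 at rank 15 (-2.25), a homeobox gene of body position, and AHSG at rank 21 (-1.91), a plasma protein made by liver. HDAC9, a histone deacetylase, at rank 19 was listed at 0 in 7 psoas major and 5 longissimus dorsi libraries.

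Markers of other cell types also differed between the muscles. Of 12112 genes, 27.9% were called between the muscles in the fit paired by breed, 13.7% higher and 14.2% lower in psoas major. On deposited FPKM 1122 were higher and 1802 lower, against 1657 and 1719 after scaling. Of 10 liver markers 9 were lower in psoas major, where their sum ran from 1.12 to 28.0 scaled FPKM, against 0.811 to 398 in longissimus dorsi. Of 7 fibroblast and matrix genes 6 were lower in psoas major (sum 622 to 1993, against 946 to 3168), as were 3 of 6 adipocyte markers (99.4 to 232, against 161 to 344). Of 10 skeletal muscle markers, most of them fast fibre genes, 8 were lower (sum 23910 to 75930, against 34530 to 125000).

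ALB, the defining liver marker, was above 0 in each muscle library. In longissimus dorsi the liver marker sum was 398 in Piétrain, 181 in Bamei, 148 in Jinhua, 91.4 in Meishan, 84.0 in Berkshire and 61.1 in Hampshire. It was 19.3 in Large White, 18.3 in Landrace, 6.73 in Rongchang and 0.811 in Tibetan wild boar. In the 7 breeds with high MSS51 in this muscle (34.8 to 58.6 FPKM) the sum ran from 0.811 to 398. In the 3 with low MSS51, Berkshire, Jinhua and Bamei, it ran from 84.0 to 181. The part of liver, fibroblast, matrix and adipocyte RNA in the difference between the muscles was not tested. In these bulk libraries, fewer cells of a type and less RNA per cell cannot be told apart.

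Fast fibre genes and MSS51 had the same direction between the muscles. Of 283 listed symbols 197 matched a gene of the tables, and the counts below are of the matched genes that were high enough to test. Of 16 fast and 16 slow fibre genes listed, 10 and 8 matched. The adult myosin heavy chains MYH1, MYH2, MYH4 and MYH7 had no match. Of 10 fast fibre genes 9 were lower in psoas major and none was higher, with a list median of -0.58 on the log2 scale and of -0.00 over all genes. Over all genes 14.2% were lower. TPM1, a tropomyosin of the thin filament, was 3594 against 8493 scaled FPKM, a log2 difference of -1.25 ± 0.15 (limma adjusted p = 0.000294). MYBPC2, the fast myosin-binding protein C, was 715 against 1475 (-1.11 ± 0.15, limma adjusted p = 0.000403). MYL11, the fast regulatory light chain, was 13500 against 21240 (-0.67 ± 0.12, limma adjusted p = 0.00157). Each of these 3 differences was smaller than that of MSS51, which was chosen for its size.

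Genes of glycolysis and glycogen use were also lower in psoas major, 15 of 19 against 14.2% of all genes, with none higher and a list median of -0.73. GPI, which converts glucose 6-phosphate to fructose 6-phosphate, was 361 against 769 scaled FPKM (-1.08 ± 0.13, limma adjusted p = 0.000212). PGAM2, the muscle phosphoglycerate mutase, was 2095 against 4212, and PYGM, the muscle glycogen phosphorylase, 2015 against 4000 (limma adjusted p = 0.000511 and 0.000612). HK2, hexokinase 2, was 9.83 in psoas major and 6.20 in longissimus dorsi and was not called (limma adjusted p = 0.109).

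Slow fibre genes ran the other way, with 3 of 8 higher in psoas major against 13.7% of all genes, none lower, and a median of 0.32. ANKRD2, a stretch-responsive ankyrin repeat protein, was 252 against 127 scaled FPKM (0.95 ± 0.16, limma adjusted p = 0.00135), in 10 of 10 breeds. MYBPC1, the slow myosin-binding protein C, was 952 against 566 (0.75 ± 0.09, limma adjusted p = 0.000205). MYL3, the slow essential light chain, was 1525 against 969 (0.64 ± 0.19, limma adjusted p = 0.0255). TNNI1, slow troponin I, was 1573 against 1259 and was not called (limma adjusted p = 0.111).

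Oxidative regulators and genes of fat oxidation were mostly higher in psoas major, 12 of 21 against 13.7% of all genes, with 1 lower and a median of 0.51. HADHB, a subunit of the mitochondrial trifunctional protein of fatty acid oxidation, was 192 against 81.5 scaled FPKM (1.10 ± 0.21, limma adjusted p = 0.00299). ACAA2, the mitochondrial thiolase, was 73.5 against 36.7 (0.99 ± 0.12, limma adjusted p = 0.000218). PPARA, a nuclear receptor that turns on fat oxidation genes, was 5.93 against 3.05 (0.74 ± 0.18, limma adjusted p = 0.00981). The gene that was lower was PRKAG3, the AMPK subunit of glycolytic muscle, at 5.11 against 9.36 (-0.77 ± 0.14, limma adjusted p = 0.00185). PPARGC1A, the coactivator PGC-1alpha, did not pass (0.19 ± 0.27, limma adjusted p = 0.646).

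Genes around the role of the yeast namesake were called about as often as genes at large. Of 11 genes for COX1 synthesis and complex IV assembly 3 were higher and 1 lower in psoas major, with a median of 0.08, where 27.9% of all genes were called in either direction. LRPPRC and SLIRP, which form a complex that stabilises mitochondrial mRNAs, differed in opposite directions. LRPPRC was 36.5 against 24.5 scaled FPKM (0.55 ± 0.07, limma adjusted p = 0.000362) and SLIRP 413 against 587 (-0.51 ± 0.11, limma adjusted p = 0.00576). COX16 and COX15, both assembly factors, were higher in psoas major by 0.46 and 0.24 (limma adjusted p = 0.0263 and 0.0401).

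Of 7 complex IV subunits 3 were higher and none lower, with a median of 0.12. COX2, encoded in mitochondrial DNA, was 35800 against 21670 (0.73 ± 0.11, limma adjusted p = 0.000787). NDUFA4 and COX5A, encoded in the nucleus, were higher by 0.28 and 0.21 (limma adjusted p = 0.0155 and 0.0338). The 3 of 7 called higher stand against 13.7% of all genes.

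Other genes with a MYND zinc finger were also near the background. Of 13 tested members 1 was higher and 2 were lower in psoas major, with a median of -0.04, against 27.9% of all genes called. SMYD2, a lysine methyltransferase, was 12.5 against 20.4 scaled FPKM (-0.71 ± 0.11, limma adjusted p = 0.00076). DEAF1, a transcription factor, was lower by 0.34 (limma adjusted p = 0.000712), and EGLN1, the oxygen-sensing prolyl hydroxylase, was higher by 0.45 (limma adjusted p = 0.00184).

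In the myostatin and TGF-beta list 5 of 24 genes were lower in psoas major and 2 were higher, with a median of 0.03. That is close to the 27.9% of all genes called, so the count is no result about the pathway. Myostatin itself (MSTN), the muscle growth inhibitor, was 6.13 against 7.88 scaled FPKM and was not called (-0.27 ± 0.17, limma adjusted p = 0.252). Its antagonist FST, follistatin, was 4.69 against 10.6 (-1.08 ± 0.17, limma adjusted p = 0.000919), lower in 9 of 10 breeds. DCN, a matrix proteoglycan that binds TGF-beta and that also stands in the fibroblast list, was 183 against 300 (-0.74 ± 0.08, limma adjusted p = 0.00012). LTBP1, LTBP3 and TGFBR3 were lower by 0.42, 0.37 and 0.36, and SKIL, an inhibitor of SMAD signalling, and SMAD3 were higher by 0.37 and 0.27.

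**Figure D3:**
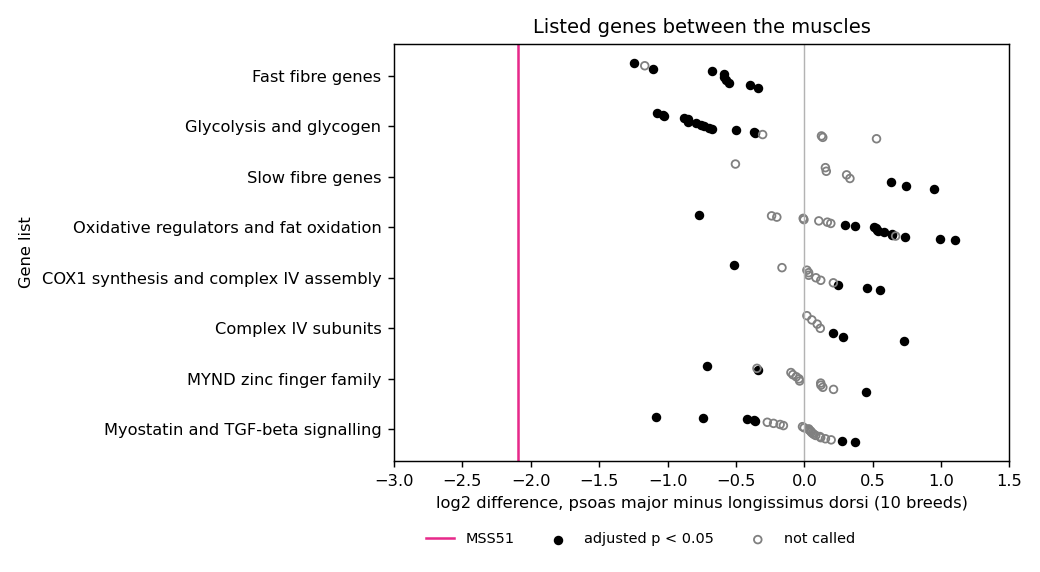
Log2 difference of each tested gene of 8 lists, psoas major minus longissimus dorsi over 10 breeds; filled points passed an adjusted p of 0.05, open points did not, and the vertical coloured line is MSS51 at -2.09. Filled fast fibre and glycolysis points are all below 0, and COX1 (in 2 lists) and COX3, listed at 0 in several libraries, lie beyond the left edge and are not drawn.

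The fit without pairing by breed called 663 genes in place of 3376. In it 2 fast fibre genes and 8 glycolysis genes were lower, and 1 slow fibre gene and 5 oxidative genes were higher in psoas major.

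Levels of MSS51 did not follow the origin of the breeds beyond the spread. In longissimus dorsi the mean log2 level was 4.48 ± 1.37 in Chinese and 5.24 ± 1.25 in Western breeds (SD, n = 5 each; exact permutation p = 0.278). The difference was -0.76 ± 0.73 (SE, 95% confidence interval -2.39 to 0.86). In psoas major the means were 2.69 ± 1.15 and 2.84 ± 0.60 (exact permutation p = 0.825), with a difference of -0.15 ± 0.50 (-1.25 to 0.95). Both intervals reach past 1 log2 unit on the side of lower levels in Chinese breeds, so equality is not shown.

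The mean of both muscles differed by -0.46 ± 0.55 (-1.66 to 0.75, exact permutation p = 0.468). The size of the difference between muscles was -1.79 ± 0.85 in Chinese and -2.40 ± 1.21 in Western breeds (exact permutation p = 0.357, limma adjusted p = 0.921). The smallest exact p for 5 against 5 is 0.00794. In the same order of comparisons (mean of both, psoas major, longissimus dorsi, their difference), 0.0991%, 0.0165%, 0.0248% and 0% of all genes were called by limma. For the last of these, 573 of 12112 genes had an unadjusted p below 0.05.

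Within 7 of the 10 breeds, no relation was detected between the level in a breed's psoas major and that in its longissimus dorsi. Of the 3 breeds left out, Jinhua and Bamei had the lowest psoas major values (2.14 and 2.68 FPKM), and Berkshire had 5.01 FPKM. The relation over all 10 breeds is not given here. Because the longissimus dorsi libraries of Berkshire, Bamei and Jinhua (6.37 to 11.4 FPKM) lay apart from the other 7 (34.8 to 58.6 FPKM), relations in that muscle were computed within the 7. Pearson's r between the muscles was 0.00236 (exact permutation p = 0.996) and Spearman's rho was 0.107 (exact permutation p = 0.84), and without the 2 breeds farthest from the median r was 0.161. Over all genes, the median Spearman correlation with libraries of the same muscle was 0.919 in Berkshire and 0.925 in Bamei and Jinhua. It ran from 0.909 to 0.925 over the 10 longissimus dorsi libraries, and from 0.901 to 0.922 in psoas major. Likeness to the other muscle is not given, and why the 3 libraries were low was not tested.

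MSS51 was set against 5 genes of fibre type, metabolism and myostatin in each muscle, 10 relations in all. The list held 8 genes, of which MYH7, MB and ACTN3 had no match. In psoas major it rose with PYGM, with r = 0.839 over 10 breeds (permutation p = 0.00275, adjusted 0.0275) and rho = 0.83 (permutation p = 0.00482, adjusted 0.0367). Without the 2 breeds farthest from the median r was 0.76. PFKM, the muscle phosphofructokinase that commits glucose to glycolysis, gave r = 0.766 (permutation p = 0.00995, adjusted 0.0332) and rho = 0.806 (permutation p = 0.00735, adjusted 0.0367), and 0.617 without the 2 farthest.

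In longissimus dorsi, within the 7 breeds, PFKM gave r = 0.888 (exact permutation p = 0.00774, adjusted 0.0332) and rho = 0.857 (exact permutation p = 0.0238, adjusted 0.0794). Without the 2 farthest breeds r was 0.605, and without Meishan the adjusted p was 0.368. PYGM gave r = 0.812 (exact permutation p = 0.0313, adjusted 0.0784) and rho = 0.643 (exact permutation p = 0.139, adjusted 0.333). On this scale r was -0.0581 without the 2 farthest, so the relation there rests on those breeds. Other scales differed, with r of 0.757 on deposited FPKM and 0.681 without the 2 farthest. After quantile normalisation r was 0.582, and 0.938 without the 2 farthest. The number of relations past the adjusted threshold was 3, fell to 1 on deposited FPKM, and ranged from 0 to 4 when breeds were left out, with 0 without Hampshire, Piétrain, Jinhua or Tibetan wild boar and 1 without Rongchang.

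**Figure D4:**
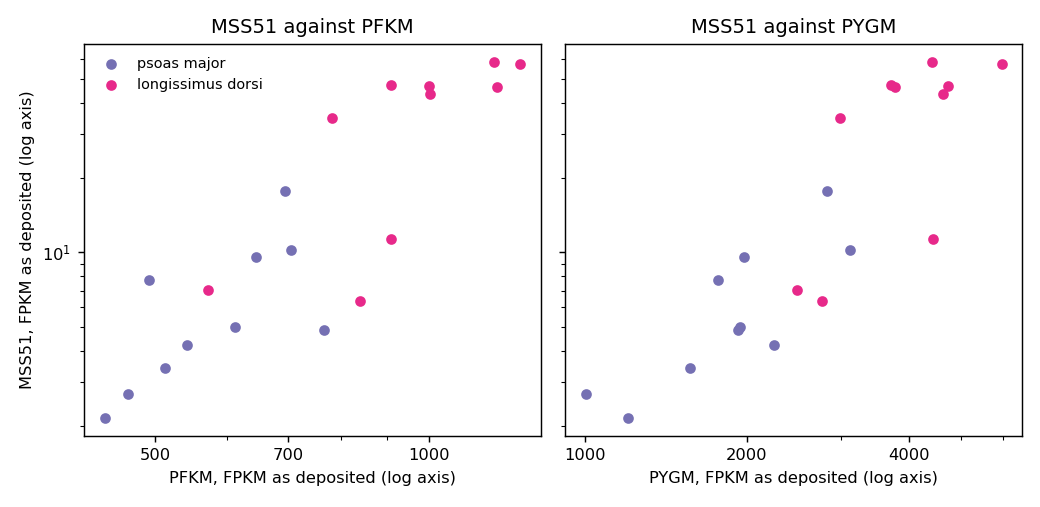
MSS51 against PFKM (left) and PYGM (right), both axes in deposited FPKM on log scales, 1 point per breed, coloured by muscle. On this deposited scale r in psoas major is 0.815 for PYGM (permutation p adjusted 0.0421) and 0.679 for PFKM (adjusted 0.113), and 3 longissimus dorsi points at 6.37 to 11.4 FPKM of MSS51 lie apart from the other 7.

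The other relations did not pass. In psoas major, MSS51 with PPARGC1A gave r = -0.435 (permutation p = 0.209, adjusted 0.318) and rho = -0.394 (permutation p = 0.263, adjusted 0.438), with TNNI1 r = 0.44 (permutation p = 0.205, adjusted 0.318) and rho = 0.0182 (permutation p = 0.973, adjusted 0.973), and with MSTN r = 0.124 (permutation p = 0.733, adjusted 0.815) and rho = 0.224 (permutation p = 0.537, adjusted 0.768). Without the 2 farthest breeds these r were -0.683, 0.0149 and 0.639. In longissimus dorsi r was 0.376 for PPARGC1A, -0.0333 for TNNI1 and 0.527 for MSTN (exact permutation p = 0.407, 0.941 and 0.223, adjusted 0.508, 0.941 and 0.318). The rho there were 0.107, 0.107 and 0.607 (exact permutation p = 0.84, 0.84 and 0.167, adjusted 0.933, 0.933 and 0.333), and without the 2 farthest breeds the r were -0.0916, -0.445 and 0.771.

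PPARGC1A was highest in the 2 longissimus dorsi libraries that were lowest in MSS51. It was 138 FPKM in Berkshire and 49.8 FPKM in Bamei, against 2.84 to 8.57 FPKM in the other 8 breeds. In psoas major it was also highest in Berkshire (47.0 FPKM) and Bamei (34.1 FPKM), followed by Piétrain (16.8 FPKM) and 2.98 to 12.1 FPKM in the rest. Jinhua, the third breed with low MSS51 in longissimus dorsi, was among the 8 with low PPARGC1A there. Berkshire and Bamei are among the breeds left out of the relations in longissimus dorsi. The pattern rests on these 2 breeds and was not tested.

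Other genes were ranked by likeness to MSS51, as a description over points that share breeds and tissues. Over the 83 tissue libraries the 8 most alike were FAM184B (r = 0.866), MYH3 (0.865), HIPK4 (0.86), ENHO (0.859), RABGGTA (0.856), CAND2 (0.851), CDH15 (0.847) and TESK1 (0.842). MYH3, the embryonic myosin heavy chain, had median deposited levels of 34.9 FPKM in longissimus dorsi, 15.7 in psoas major and 3.51 in ovary. ENHO, which encodes the secreted peptide adropin, had medians of 129, 69.3 and 31.7 FPKM. CDH15, the cadherin of muscle precursor cells, had medians of 11.3, 8.15 and 5.75 FPKM, so in these 3 psoas major was above ovary. In the other 5, as in MSS51 itself on deposited FPKM, ovary was above psoas major, for example RABGGTA at 4.12 FPKM in psoas major and 11.1 FPKM in ovary and TESK1 at 20.3 and 26.0 FPKM.

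Over the 10 differences between the muscles the 8 most alike were RNLS (r = 0.96), FBXO40 (0.932), RERG (0.93), SLC37A4 (0.918), SPAG5 (0.911), CAPZB (0.904), BTBD19 (0.898) and CASQ1 (0.894). Of these, SLC37A4, the glucose 6-phosphate transporter, had medians of 17.4 FPKM in psoas major and 39.5 FPKM in longissimus dorsi, and CASQ1, the calcium-binding protein of fast fibres, 1180 and 1649 FPKM. FBXO40, a ubiquitin ligase subunit of muscle, was higher in psoas major (46.2 against 39.1 FPKM, log2 difference 0.20, limma adjusted p = 0.0301), opposite to MSS51. RNLS, RERG, SPAG5 and BTBD19 were not called between the muscles, with medians of 2.91 and 2.94 FPKM for RNLS. SPAG5 (0.472 and 0.474 FPKM) and BTBD19 (1.086 and 1.005 FPKM) had low levels in both muscles. Likeness over the 10 differences is thus in how breeds vary and not in the mean difference. With so few points, the highest r among 12112 genes can be large by chance, and no test was made. On deposited FPKM 6 of the 8 genes were shared in each of these rankings.

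The genes beside MSS51 on the chromosome were followed for their own levels. Only genes matched by symbol to the expression tables were considered, so genes without a match may lie between. In the Sscrofa11.1 order of the matched genes, CFAP70, ANXA7 and PPP3CB come before MSS51 and USP54, MYOZ1 and SYNPO2L after it. The span of PPP3CB, a catalytic subunit of the phosphatase calcineurin, overlaps that of MSS51 in Sscrofa11.1. The FPKM were made on Sscrofa10.2, where the overlap was not examined. Whether the counting used strand is not given in the sources used here, so fragments of these 2 genes may not be fully separated.

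PPP3CB was at similar levels in both muscles. It ran from 52.6 to 70.1 FPKM in psoas major (median 58.2) and from 45.8 to 68.7 FPKM in longissimus dorsi (median 55.1), which overlapped (0.12 ± 0.06 on the log2 scale, limma adjusted p = 0.164). In ovary its median was 21.9 FPKM and in heart 26.0 FPKM, so it was higher in heart than in ovary where MSS51 was lower.

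ANXA7, a calcium-dependent membrane-binding annexin, was lower in psoas major (18.5 to 43.9 FPKM, median 29.8) than in longissimus dorsi (39.3 to 86.9 FPKM, median 46.6). Its log2 difference was -0.74 ± 0.12 (limma adjusted p = 0.000947), in 10 of 10 breeds. MYOZ1, a calcineurin-binding protein of the Z-disc of fast fibres, had medians of 1963 and 2595 FPKM in psoas major and longissimus dorsi (-0.40 ± 0.13, limma adjusted p = 0.0312) and of 6.92 FPKM in ovary. SYNPO2L, a Z-disc protein of heart and skeletal muscle, had medians of 73.2 and 106 FPKM in these muscles (limma adjusted p = 0.0715) and of 81.9 FPKM in heart. USP54 and CFAP70 had low levels in both muscles, with medians of 3.14 and 3.94 FPKM and of 0.181 and 0.118 FPKM.

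**Figure D5:**
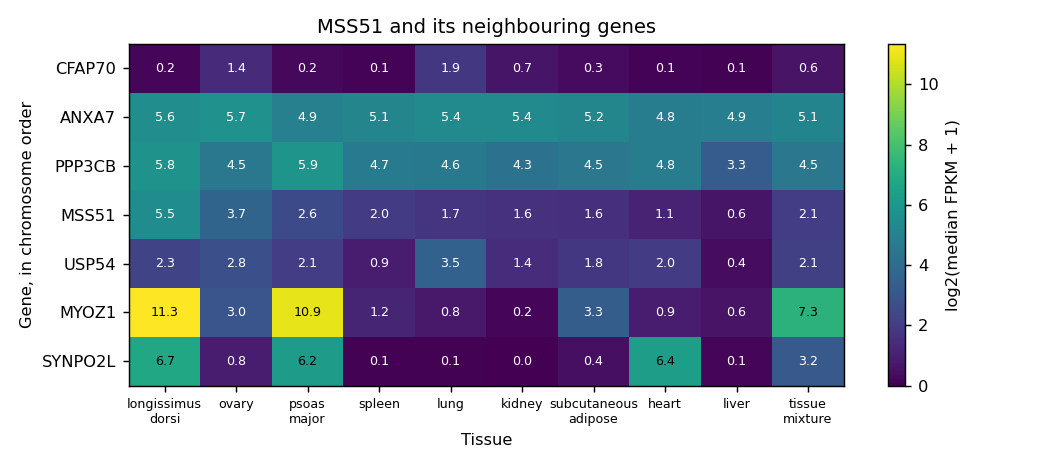
Median deposited FPKM of MSS51 and 6 genes around it, in chromosome order, in 9 tissues and the mixtures; colour and printed values give log2 of the median plus 1. MSS51 is highest in longissimus dorsi, where its median is 44.9 FPKM, while PPP3CB is nearly level between the muscles at 58.2 FPKM in psoas major and 55.1 FPKM in longissimus dorsi.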

How the data were processed

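Per the labels' protocols, total RNA was extracted with TRIzol and made into libraries with a TruSeq kit. The authors deposited FPKM per gene and tissue for each breed, made with TopHat and Cufflinks 2.2.1 on Sscrofa10.2, per the submitters' processing notes. The annotation, options and use of strand are not given in the sources used here. FPKM correct for gene length and library total, so a few very abundant muscle transcripts lower all other values of a library.

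For each fit, libraries were scaled by median ratios over genes at 1 FPKM or more in all its libraries. A gene entered a fit when 3 or more of its libraries reached 1 FPKM. Log2 of scaled FPKM plus a pseudocount of 1 was tested with limma 3.58.1 (trend and robust options, breed as block) in R 4.3.3, with statmod 1.5.0 (and data.table, version 1.17.8). A gene was called at a two-sided Benjamini-Hochberg adjusted p below 0.05. Breed pairs the tissues by label. Single-gene tests were exact two-sided permutations, and correlations over 10 breeds used 100000 permutations. Figures used Python 3.11.15, numpy 2.4.6, pandas 2.3.3 and matplotlib 3.10.9. On simulated data for the comparison of the muscles (12065 genes), 76% of genes changed by 1 log2 unit and 99% changed by 2 were recovered. The simulated libraries varied independently, with no breed component. Only genes above a set level in muscle were changed, so recovery of lower genes is not given.

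MSS51, the gene lists and the tests were chosen with earlier results of these data known. MSS51 is given in every library. The 8 genes most like it by Pearson's r over 83 libraries and over 10 differences are named. So are the 3 nearest matched neighbours per side in Sscrofa11.1 and up to 5 called genes per list with the largest differences. HK2, TGFBR3, SMAD3, COX1, COX3 and ACTA1, which this rule does not name, were chosen after their values were seen. Sequences were not analysed here. Alternatives were unscaled and quantile-normalised FPKM, another pseudocount (0.1), a filter set at 5 FPKM or dropped, limma without trend and robust options, no block, 1 muscle only, and each breed left out.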

Additional observations from a re-analysis of the deposited data

Results flagged for a closer look

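In 5 of 24 groups of gene and tissue examined, the highest library stood further from its neighbour than Dixon's 95% limit allows. Chance flags about 1 in 20 such groups if values are normally distributed. The limit was applied to untransformed FPKM, whose distribution was not tested, so the count is not read as an excess. MSS51 in psoas major of Tibetan wild boar was 17.6 FPKM, while the next breed, Hampshire, was at 10.21 FPKM. TNNI1, slow troponin I, was also highest in Tibetan wild boar, at 2570 FPKM in psoas major and 2480 FPKM in longissimus dorsi. PPARGC1A in longissimus dorsi of Berkshire was 138 FPKM, where MSS51 was 7.07 FPKM. MSTN in longissimus dorsi of Large White was 21.1 FPKM, where MSS51 had its highest value of 58.6 FPKM.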

How the results depend on the processing

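Of 285 alternative values 266 kept their direction and their side of the threshold or stayed within the limit for a count, 8 moved, 2 were weaker and 9 turned sign. Those 9 were uncalled values near 0, with 1 breed left out: the origin difference in psoas major without Hampshire, Large White, Bamei or Jinhua, and the correlation of MSS51 between the muscles (-0.0989 to 0.0948) without these breeds or Rongchang. The higher level in muscle than in ovary was no longer called on deposited FPKM (0.0916) or with psoas major alone (0.0525). The pairs among the 7 other tissues that passed rose from 9 to 16 when these were fitted without muscle, an alternative chosen after seeing the data like that with longissimus dorsi alone, and were 8 to 11 with 1 breed left out. Without the replicate block by breed, 663 genes were called between the muscles in place of 3376, and the block changed no other call of MSS51. Relations with partner genes that passed numbered 3, 1 on deposited FPKM and 0 to 4 with 1 breed left out. Leaving out each breed gave log2 differences of muscle from heart of 2.93 to 3.22, liver 3.23 to 3.61, spleen 2.42 to 2.77, lung 2.69 to 3, kidney 2.59 to 2.92, adipose 2.53 to 2.91 and ovary 0.968 to 1.35. The muscles differed by -2.28 to -1.93, the mixture by -1.26 to -1.02, and genes called between the muscles were 2723 to 3468. Chinese minus Western differences were -0.81 to -0.101 for the mean of both muscles, -0.577 to 0.116 for psoas major, -1.32 to -0.296 for longissimus dorsi and 0.319 to 1.11 for the difference between muscles, none called. The causes of these changes were not tested. Depth is unknown, so how far counting error limits the low levels in liver and heart cannot be given.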
